A study of Mus musculus with 8 samples.

Results

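The untreated state of a mouse gastrointestinal stromal tumor was described here from the 4 vehicle tumors, chosen by their sample titles from a series of 8 libraries. Gastrointestinal stromal tumor (GIST) is a sarcoma of the gut wall that resembles interstitial cells of Cajal, which set the rhythm of its contractions. All 4 tumors were explanted from the cecum of C57BL/6 mice with the genotype Kit V558Delta/+, Etv1 flox/flox and Rosa26 CreERT2/CreERT2, and all received vehicle only. Every animal therefore carried 1 copy of Kit with a deletion at valine codon 558, both copies of Etv1 flanked by loxP sites, and a tamoxifen-dependent Cre recombinase expressed from both copies of the broadly active Rosa26 locus. The floxed Etv1 and the Cre were thus present in these tumors without the drug that switches the recombinase on. The labels do not give the age of the mice, the kind of vehicle or the time of sampling. Each library has its own identifier, but the labels do not say whether the tumors came from different mice, so each spread given is that between libraries. One group was described, so no test between conditions was made.

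Kit is a receptor tyrosine kinase that stem cell factor activates, and interstitial cells of Cajal depend on it. Mutations in its juxtamembrane segment leave the kinase active without ligand and are a common cause of human GIST. Etv1 is an ETS-family transcription factor of the same cell lineage, and Ano1 is the calcium-activated chloride channel that carries their pacemaker current. The reference sequence around the codon named in the genotype is shown because every tumor of the group carries this allele. In each line the codon numbered 558 is in capitals, with 45 bases on either side, read 5′ to 3′ from the GENCODE mouse transcripts on GRCm38. The labels do not say which transcript the number follows, and codon 558 is a valine codon in both transcripts shown, the first with 975 codons and the second with 979.
Kit-204: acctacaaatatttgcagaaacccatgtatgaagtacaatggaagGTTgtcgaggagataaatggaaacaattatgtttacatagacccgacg
Kit-201: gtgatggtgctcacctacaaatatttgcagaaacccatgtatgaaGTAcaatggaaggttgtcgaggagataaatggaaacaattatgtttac
The table of expression values gives 1 level per gene for both Kit alleles together, so the share of transcripts from the mutant allele is unknown.

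Levels are FPKM, the fragments assigned to a gene scaled by transcript length and library size, so genes can be set side by side. Of 34586 gene symbols, 13430 (38.8%) were at 1 FPKM or more in all 4 tumors. After leaving out immunoglobulin and T cell receptor segments, mitochondrial genes, small RNAs and predicted genes, 19433 named genes remained, of which 11550 (59.4%) reached that level. The mean over the tumors was at least 10 FPKM for 7250 named genes, at least 100 FPKM for 793 and at least 1000 FPKM for 25, and the median of all named genes was 4.29 FPKM. Absolute depth is unknown. Relative depth, read from the spacing of low values, ranged 1.3-fold. That reading holds only if the library size used for FPKM was the number of fragments, which is not stated. Each library had 14176 to 14621 symbols at 1 FPKM or more. Antigen receptor segments, some of them very short, held 22.8% to 58.7% of the summed FPKM of a library, and for that reason no gene is given as a share of that sum.

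The 7 genes that mark the tumor lineage were all well above the median gene in every tumor. Kit itself measured 542, 892, 870 and 735 FPKM in tumors 1 to 4, a mean of 760 ± 161 FPKM (SD, n = 4), and ranked 40 among the named genes. It lies on chromosome 5 at 75970941 to 76052747 (mm9, as all positions here). Tumor 1 was the lowest and tumors 2 and 3 the highest. Ano1 on chromosome 7 (151774454 to 151937879) stood at 414, 570, 603 and 501 FPKM, a mean of 522 ± 83.4, with the same tumor lowest.

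Kcnk3 and Edn3 came next and could not be ordered by level. Kcnk3, which encodes the acid-sensitive background potassium channel TASK-1, lies on chromosome 5 at 30890543 to 30927643 and measured 371, 299, 421 and 453 FPKM (386 ± 66.9, SD, n = 4). Edn3 on chromosome 2 (174586120 to 174609543), the peptide ligand endothelin 3, measured 326, 394, 486 and 328 FPKM (383 ± 75.3). Each of this pair was the higher one in 2 of 4 tumors. Gpr20, an orphan G protein-coupled receptor used to identify GIST, lies on chromosome 15 at 73525034 to 73537935 and reached 133, 136, 156 and 173 FPKM (150 ± 18.9). Its highest tumor lay below the lowest tumor of Edn3.

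The transcription factors among the markers were lower. Hand1, a basic helix-loop-helix factor of mesoderm, lies on chromosome 11 at 57642207 to 57646320 and gave 67.0, 65.7, 77.7 and 80.1 FPKM (72.6 ± 7.33, SD, n = 4). Etv1 on chromosome 12 (39505967 to 39594802), the floxed gene, gave 34.6, 51.1, 40.4 and 38.6 FPKM (41.2 ± 7.03) and ranked 2405. Tumor 2 was the highest for Etv1 and the lowest for Hand1. The ranges of Gpr20, Hand1 and Etv1 did not overlap each other, whereas neighbours from Kit to Edn3 did overlap, although Kit exceeded Ano1 and Ano1 exceeded Kcnk3 in 4 of 4 tumors. The highest tumor was 1.22 to 1.64 times the lowest across the markers. None of the 7 loci overlaps another expressed gene in the table.

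Other genes of the lineage were also present. Hand2, a partner of Hand1 in mesenchyme, had a mean of 76.7 ± 13.5 FPKM, and Prkcq, the protein kinase C theta used as a GIST stain, had 36.3 ± 8.25 FPKM. Cd34, a sialomucin found on GIST cells and vessels, had 13.2 ± 1.53 FPKM. Pdgfra, the receptor mutated in some GIST without Kit mutation, was lower than these at 6.42, 4.18, 5.89 and 5.72 FPKM. Its mean was 5.55 FPKM, beside a named-gene median of 4.29 FPKM. Barx1, a homeobox factor of stomach mesenchyme, was listed at 0 in tumors 1, 2 and 4 and at 0.0431 FPKM in tumor 3. In all, 12 of 13 members of the tumor lineage list were at 1 FPKM or more in every tumor, beside 59.4% of named genes, a count that reflects the choice of known lineage genes.

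**Figure D1:**
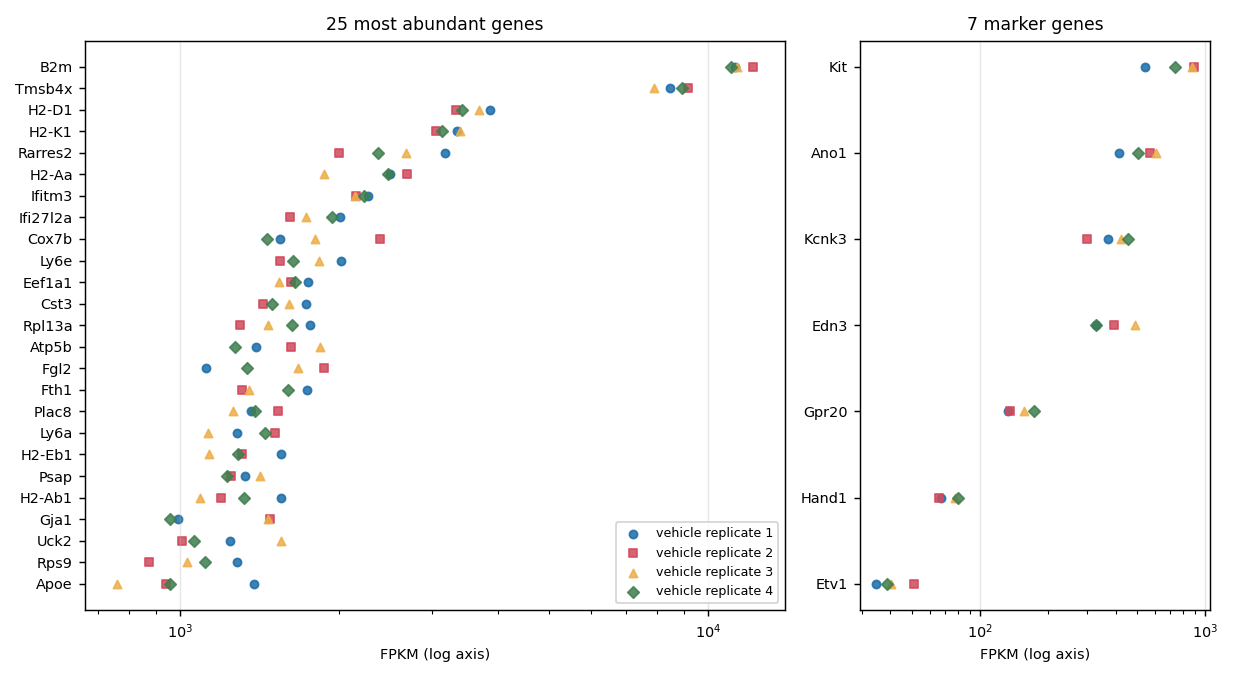
FPKM on a log axis for the 25 most abundant named genes (left) and the 7 tumor lineage markers (right), with 1 point for each of the 4 vehicle tumors. B2m and Tmsb4x stand apart above the other genes, and Kit lies between 542 and 892 FPKM.

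None of the 25 most abundant named genes was on the tumor lineage list. Groups formed after the levels were seen held 3 genes of MHC class I, 3 of MHC class II and 4 inducible by interferons. They also held 2 genes of mitochondrial energy supply and 3 of translation, and the other genes of the 25 fell outside these groups. B2m, the light chain of MHC class I molecules, was the highest at 11249, 12159, 11333 and 11040 FPKM (11445 ± 492, SD, n = 4). Tmsb4x, which encodes the actin-binding peptide thymosin beta 4, followed at 8604 ± 549 FPKM. The class I heavy chains H2-D1 and H2-K1 had means of 3574 ± 243 and 3231 ± 163 FPKM. These genes varied little, and the summed level of B2m, H2-D1 and H2-K1 was 18452, 18553, 18411 and 17584 FPKM in tumors 1 to 4.

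Genes of MHC class II, which is carried mainly by antigen-presenting cells, formed another part of the top 25. H2-Aa measured 2498, 2690, 1876 and 2475 FPKM, and together with H2-Ab1 and H2-Eb1 it summed to 5609, 5195, 4103 and 5085 FPKM. Tumor 3 was the lowest of the 4. The H2 genes resemble each other in sequence and the loci of H2-Aa and H2-Ab1 overlap in the table, so the split of fragments between them is uncertain. A further 4 genes of the top 25 are inducible by interferons, namely Ifitm3 (2199 ± 61.1 FPKM), which blocks virus entry, Ifi27l2a (1825 ± 181), Ly6e (1759 ± 209) and Ly6a (1344 ± 173). Ifitm3 was nearly level between tumors, with 2269, 2155, 2141 and 2231 FPKM.

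Secreted proteins and housekeeping genes made up much of the remainder. Rarres2, the precursor of the chemoattractant chemerin, had 3170, 1998, 2679 and 2370 FPKM, highest in tumor 1. Fgl2, a fibrinogen-like protein, had 1123, 1874, 1675 and 1338 FPKM, lowest in tumor 1. Both loci overlap another expressed gene. Apoe, the lipid carrier that macrophages and other cells secrete, had 1378, 941, 761 and 959 FPKM, and Cst3, the protease inhibitor cystatin C, had 1566 ± 131 FPKM. Apoe was highest in tumor 1 and lowest in tumor 3.

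Housekeeping genes in the top 25 were ordered differently across the tumors. The mitochondrial subunits Cox7b and Atp5b summed to 2938, 4014, 3644 and 2731 FPKM, higher in tumors 2 and 3. The translation genes Eef1a1, Rpl13a and Rps9 summed to 4794, 3798, 4042 and 4399 FPKM, higher in tumors 1 and 4. Gja1, which encodes the gap junction protein connexin 43, stood out among membrane proteins with 990, 1479, 1466 and 958 FPKM, again higher in tumors 2 and 3. Uck2, a uridine-cytidine kinase, is listed at 1217 ± 246 FPKM, but 1197 FPKM of that came from a row of 93 bases, and its full-length row gave 19.8 FPKM. Its place among the abundant genes therefore rests on the short row.

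Genes of other cell types were also present in the explanted tissue. Lists for 20 cell types and 1 for the cell cycle were examined. RNA from bulk tissue cannot separate fewer cells of a type from less RNA per cell. Of 12 smooth muscle genes, 11 (91.7%) were at 1 FPKM or more in all tumors, beside 59.4% of named genes. Mylk, the kinase that starts contraction, was high at 448, 461, 526 and 406 FPKM, whereas the contractile genes Acta2 (83.9 ± 23.8 FPKM), Des (24.8 ± 8.43) and Myh11 (17.4 ± 4.95) were lower, and Myocd, the coactivator that drives the smooth muscle program, had only 0.215, 0.536, 0.091 and 0.177 FPKM. Acta2, Des and Myh11 were each highest in tumor 4 and lowest in tumor 3, unlike Mylk, which was highest in tumor 3.

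Epithelial genes were among the higher ones. Of 16 epithelial genes, 15 (93.8%) were at 1 FPKM or more in every tumor, beside 59.4% of named genes, with a median of the means of 36.9 FPKM. Lgals4, a galectin of enterocytes, measured 1070, 699, 500 and 789 FPKM, Car1, the carbonic anhydrase of colonocytes, had 410, 718, 448 and 466 FPKM, and Epcam, the epithelial adhesion molecule, had 139, 145, 94.3 and 132 FPKM. Tumor 3 was the lowest for Lgals4 and Epcam. The summed level of the list was 2322, 2390, 1552 and 2124 FPKM, so tumor 3, which had the highest summed tumor lineage level (2044, 2542, 2813 and 2445 FPKM), had the lowest epithelial one. The part of epithelium in the levels of other genes was not tested.

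Among the immune lists, the macrophage and the T and NK cell lists had the highest medians, at 35.5 and 18.2 FPKM. All 12 macrophage genes were at 1 FPKM or more in all tumors, beside 59.4% of named genes. They were led by Lyz2, the lysozyme of myeloid cells, at 336, 258, 216 and 344 FPKM and by the complement genes C1qa (233 ± 46.4) and C1qb (232 ± 52.2). The dendritic cell list was at that level in 8 of 8 members but lower, with a median of 4.40 FPKM. Among T and NK cell genes, 14 of 16 (87.5%) reached it, with Cd3g, a signalling subunit of the T cell receptor complex, at 94.3, 63.8, 54.4 and 72.9 FPKM. Cd3e (19.5 ± 2.94) and Cd3d (18.25 ± 3.18), subunits of the same complex, were much lower. Cd8a (20 ± 3.38), Cd4 (19.5 ± 4.15) and the cytotoxic protease gene Gzmb (33.2 ± 6.50) were lower than Cd3g. Summed T and NK levels ran from 229 FPKM in tumor 3 to 332 FPKM in tumor 1.

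B cell genes varied widely between tumors. Cd79b, a chain of the B cell receptor, measured 16.1, 3.34, 16.5 and 39.2 FPKM, and Ms4a1, which encodes CD20, measured 3.82, 0.275, 6.16 and 19.4 FPKM. Cd79a, the other signalling chain of that receptor, measured 8.28, 1.71, 9.01 and 18.7 FPKM. Tumor 2 was thus the lowest and tumor 4 the highest for each of these genes. Across the list, 7 of 9 genes were lowest in tumor 2 and 6 of 9 were highest in tumor 4. Igj, the joining chain that plasma cells add to secreted antibodies, did not follow that order and measured 1424, 831, 337 and 740 FPKM, highest in tumor 1 and lowest in tumor 3. It held 89.7% of the summed mean of the list. The list summed to 1523, 866, 428 and 896 FPKM, above the T and NK list in every tumor and above the macrophage list in tumor 1.

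Genes of several other cell types were low. Of 10 mast cell genes, 0 reached 1 FPKM in all tumors, beside 59.4% of named genes, although mast cells also use Kit. Cpa3, the carboxypeptidase of their granules, had 0.652, 0.551, 0.414 and 0.619 FPKM, and Mcpt4, a mast cell protease, had 0.553, 0.319, 0.370 and 0.776 FPKM. Only Mcpt1 averaged above 1 FPKM, through tumor 2 at 3.38 FPKM. Of 8 enteric glia genes, 2 (25%) reached that level, and Sox10, their defining transcription factor, had a mean of 0.811 ± 0.359 FPKM. Of 14 enteric neuron genes, 7 (50%) reached it. Besides Ret they were led by Uchl1 (8.73 ± 2.81 FPKM), a neuronal ubiquitin hydrolase, and the neuropeptide gene Vip (7.92 ± 3.64), with Stmn2 at 5.96 ± 2.06, all above the named-gene median of 4.29 FPKM, whereas Elavl4, a neuronal RNA-binding protein, had 1.19 ± 0.441 FPKM. Neutrophil genes reached it in 3 of 8 cases, and their sum was 27.4, 17.5, 7.27 and 14.3 FPKM. Pancreatic acinar and skeletal muscle lists each had 1 of 6 members at 1 FPKM or more, and hemoglobin was low, with Hbb-b1 at 9.16 ± 4.46 FPKM.

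Endothelial genes reached 1 FPKM in all tumors in 11 of 12 cases (91.7%, beside 59.4% of named genes), with Pecam1, the adhesion molecule of endothelial junctions, at 17.5 ± 3.48 FPKM and Cdh5, their cadherin, at 6.37 ± 1.13 FPKM. Eng, a coreceptor for TGF-beta ligands, was far higher at 366, 180, 315 and 276 FPKM, but its locus overlaps other expressed genes. Lyve1, a hyaluronan receptor of lymphatic vessels and of some macrophages, reached 636, 748, 762 and 701 FPKM. The other 4 lymphatic genes were lower and unequal. Flt4, the receptor for lymphatic VEGF ligands, had 93.4 ± 29.4 FPKM, Pdpn, which encodes podoplanin, had 6.48 ± 1.97, and Prox1, the transcription factor that defines that lineage, had 2.29 ± 0.769. The lymphatic chemokine gene Ccl21a was listed at 0 in every tumor.

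The summed level of matrix genes was lowest in tumor 2. Fn1, which encodes fibronectin, measured 318, 226, 432 and 382 FPKM, and the fibrillar collagen genes Col1a2 (381, 219, 420 and 298 FPKM) and Col1a1 (92.6, 42.5, 88.1 and 90.0 FPKM) were also lowest there. Across the list, 5 of 10 genes were lowest in tumor 2, 4 in tumor 3 and 1 in tumor 4, and Dcn, the proteoglycan decorin, was lowest in tumor 3 (90.2, 65.7, 59.7 and 86.9 FPKM). The 10 members of the list summed to 1152, 733, 1217 and 1102 FPKM. All 12 cell cycle genes were at 1 FPKM or more, beside 59.4% of named genes, with Top2a, the topoisomerase of dividing cells, at 31.8, 32.9, 30.5 and 31.8 FPKM and Mki67, the proliferation marker, at 4.89, 5.83, 6.85 and 7.55 FPKM. Bub1, a spindle checkpoint kinase, was the highest of them at 106 ± 12.9 FPKM.

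**Figure D2:**
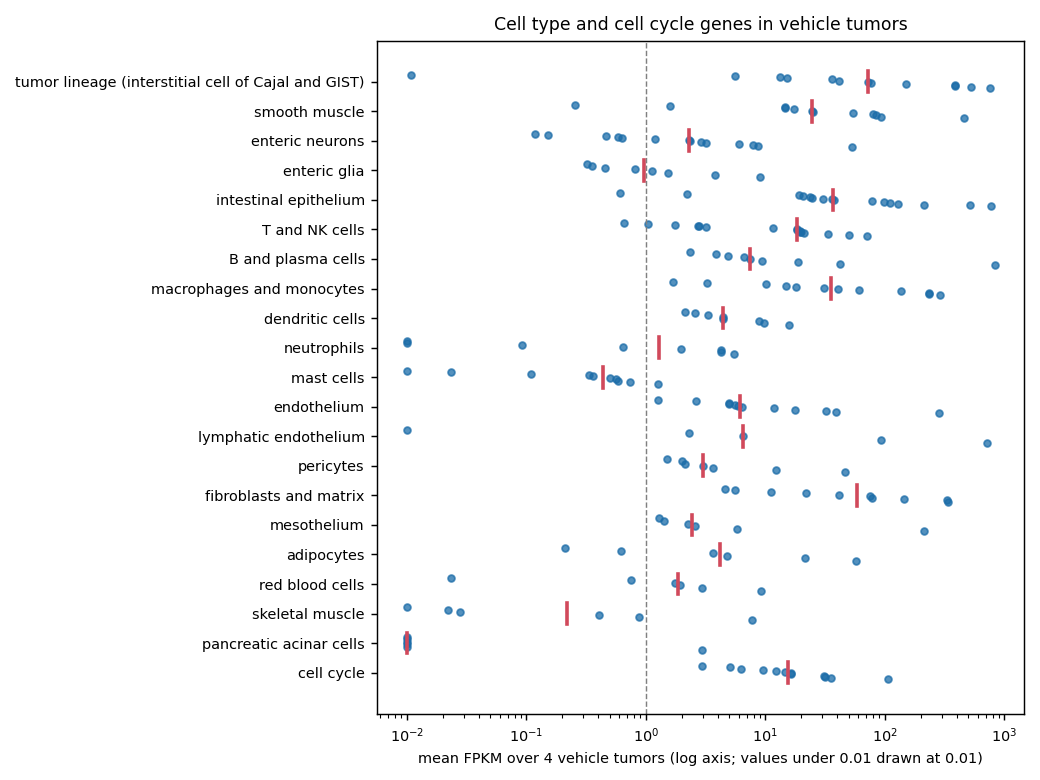
Mean FPKM over the 4 vehicle tumors on a log axis, with 1 point per gene of each cell type list and the cell cycle list; red bars are list medians, the dashed line is 1 FPKM, and means under 0.01 are drawn at 0.01. The tumor lineage list has the highest median (72.6 FPKM), which reflects the choice of known lineage genes. The fibroblast and matrix list follows at 58.4 FPKM, and the mast cell median is 0.434 FPKM.

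Among receptors, Kit was the highest of 58 receptor tyrosine kinases and held 39.7% of the summed mean level of the family. Fgfr1, a receptor for fibroblast growth factors, came second at 442, 373, 550 and 579 FPKM (486 ± 95.8, SD, n = 4), and its locus overlaps a predicted gene. Kit exceeded Fgfr1 in every tumor. The next members were lower, with Axl, a receptor for Gas6, at 95.2 ± 3.82 FPKM, Flt4, a receptor for lymphatic VEGF ligands, at 70.0, 85.1, 136 and 82.2 FPKM, and Csf1r, the macrophage receptor, at 61.1 ± 10.9 FPKM. Ret, the receptor for GDNF family ligands, measured 37.0, 49.0, 76.4 and 49.3 FPKM and was highest in tumor 3, where Flt4 was also highest. Ret was also listed with the enteric neuron genes, whose other members lay at or below the 8.73 FPKM of Uchl1. In all, 41 of 58 members (70.7%) were at 1 FPKM or more in every tumor, beside 59.4% of named genes. Egfr (5.96 ± 1.02 FPKM), Met (2.12 ± 0.493) and Igf1r (0.878 ± 0.344) were among the low ones.

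Few G protein-coupled receptors were present at comparable levels. Of 94 orphan Gpr receptors, 34 were at 1 FPKM or more in all tumors, a share of 36.2% beside 59.4% of named genes, and Gpr20 alone held 24.1% of their summed mean. Gpr133, an adhesion-type receptor, measured 34.3, 30.7, 35 and 75 FPKM and so was high in tumor 4 only, but a ribosomal pseudogene overlaps its locus. Gpr83 had 29.1, 24.9, 31.2 and 50.6 FPKM, with the same tumor highest. Gpr107 (42.1 ± 5.96) and Gpr108 (39.6 ± 2.09) completed the highest 5.

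Receptors for neurotransmitters and peptides reached 1 FPKM in all tumors in 22 of 94 cases, or 23.4% beside 59.4% of named genes, with a family median of 0.242 FPKM. Ednra, a receptor for endothelins, was the highest at 126, 145, 124 and 111 FPKM, and Ednrb, the receptor that binds endothelin 3 well, was lower at 47.2, 32.0, 45.9 and 19.1 FPKM. The ligand gene Edn3 was thus above both receptor genes in every tumor. P2ry14, a receptor for UDP-sugars, had 93.9 ± 24.1 FPKM but lies within a cluster of overlapping receptor genes. Gabbr1, a subunit of the GABA-B receptor, had 82.9 ± 6.31 FPKM, and Adrb3, the beta-3 adrenergic receptor, had 39.6, 30.2, 42.4 and 22 FPKM, lowest in tumor 4 like Ednrb.

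The receptors through which enteric nerves act on interstitial cells were also measured. Tacr1, the receptor for substance P, had 23.1, 28.6, 29.1 and 32.7 FPKM. Chrm3, the muscarinic receptor M3, had 14.4 ± 2.61 FPKM, and Chrm2, the receptor M2, had 1.36 ± 0.391 FPKM. Of 66 ligand-gated neurotransmitter receptors, 7 (10.6%) were at 1 FPKM or more in all tumors, again beside 59.4%. The highest was P2rx4, an ATP-gated channel, at 88.8 ± 6.08 FPKM, and Chrnb1, a nicotinic receptor subunit of muscle, followed at 60.4 ± 13.1 FPKM.

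Other receptor classes were represented by few genes at higher levels. Lpar6, a lysophosphatidic acid receptor, led the lipid receptors at 24.5 ± 2.55 FPKM, but its gene lies in an intron of Rb1 and the loci overlap in the table. Chemokine receptors summed to 161, 152, 109 and 160 FPKM, lowest in tumor 3. Cx3cr1, found on macrophages, was the highest of them at 38.9, 28.4, 21.8 and 27.6 FPKM. Among 48 nuclear receptors, 29 (60.4%) were at 1 FPKM or more, close to the share of named genes. Nr1h2, the oxysterol receptor LXR beta, led with 100.35 ± 14.3 FPKM. Esr1, the estrogen receptor alpha, had 23.8, 15.5, 19.5 and 17.7 FPKM, whereas Esr2, the estrogen receptor beta, was near 0 at 0.0292 ± 0.0185 FPKM.

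In several ion channel families 1 gene held most of the level. Kcnk3 held 53.9% of the summed mean of 92 potassium channel genes, of which 17 (18.5%) were at 1 FPKM or more in all tumors, beside 59.4% of named genes. Kcnk1, another background channel of the same family, had 82.6, 125, 108 and 89.3 FPKM, and Kcnh2, the delayed rectifier ERG1, had 41.9, 59.9, 80.7 and 64.1 FPKM. Kcng4, a subunit that modifies other channels, had 52.9 ± 11.6 FPKM. Kcnk1 was highest in tumor 2 and Kcnh2 in tumor 3, and both were lowest in tumor 1. Kcnma1, the large-conductance channel of smooth muscle, had 4.29 ± 1.02 FPKM, and Kcnn3, the small-conductance channel SK3, had 0.195 ± 0.0141 FPKM.

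Ano1 held 80.2% of the summed mean of 10 anoctamins. Ano6, a lipid scramblase, followed at 61.1, 90.2, 87.9 and 77.2 FPKM, and Ano10 had 36.6 ± 2.56 FPKM. Both Ano1 and Ano6 were lowest in tumor 1. Ano2, the other anoctamin known as a calcium-activated chloride channel, was near 0 at 0.0860 ± 0.0221 FPKM.

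Channels of the calcium signal that opens Ano1 differed widely in level. Itpr1, the inositol trisphosphate receptor that releases stored calcium, had 42.6, 59.9, 50.3 and 44.8 FPKM and held 83.9% of the summed mean of its list. Cacna1d, an L-type pore subunit, had 26.0 ± 2.09 FPKM, Cacna1h, the T-type subunit linked to pacemaking, had 2.91 ± 0.775 FPKM, and Cacna1c, the L-type subunit of smooth muscle, had 0.645, 2.41, 1.61 and 2.20 FPKM. Cacna1d was thus the highest of these pore subunits, but its locus overlaps other genes. None of the 4 HCN genes, which carry the pacemaker current of the heart, reached 1 FPKM in any tumor, and the highest, Hcn2, had 0.730 ± 0.191 FPKM.

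Connexins were likewise led by a single gene. Gja1 held 96.0% of the summed mean of 20 connexins, and Gjc1, connexin 45, came second with 30.5, 30.4, 31.9 and 30.2 FPKM, which were nearly equal.

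**Figure D3:**
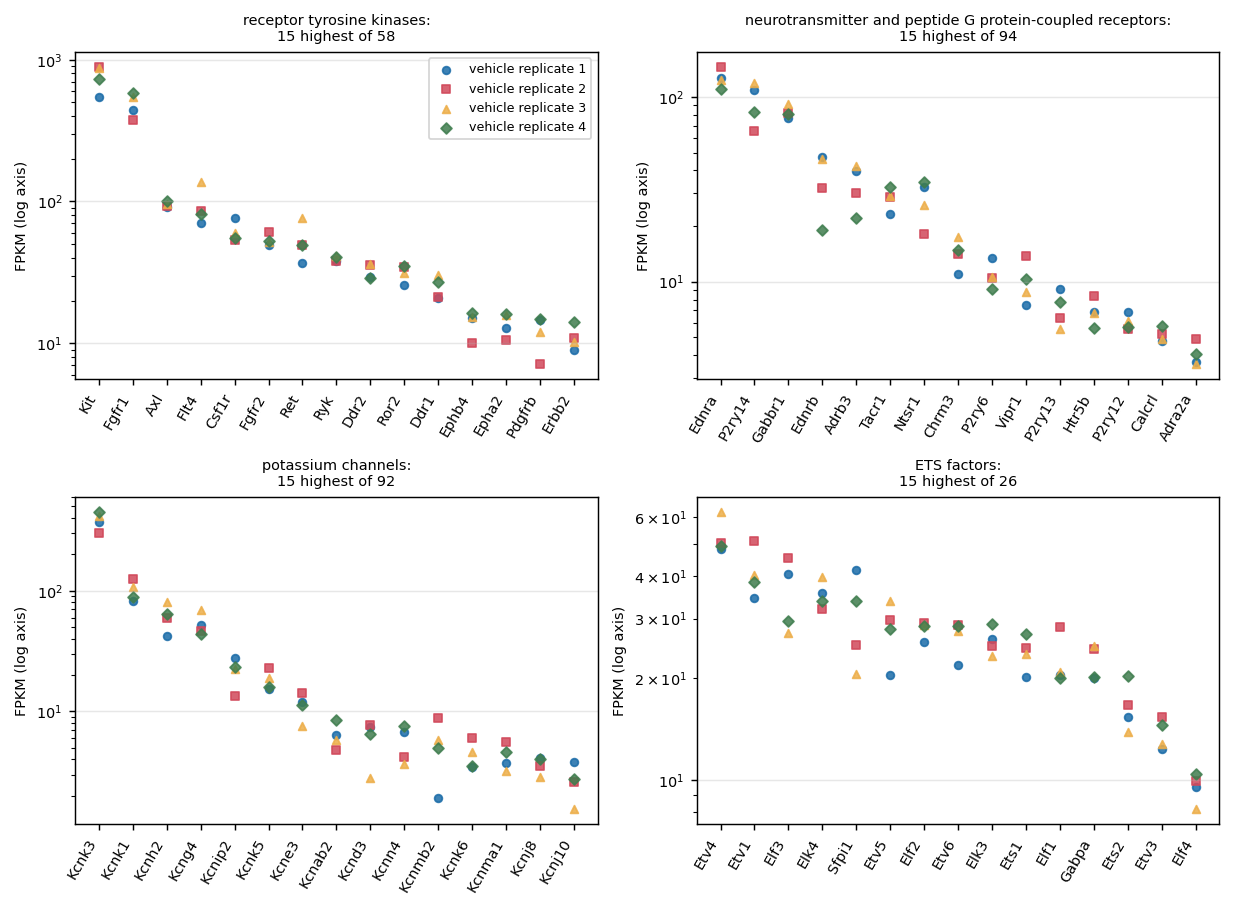
FPKM on a log axis for the 15 highest members of 4 families, with 1 point per vehicle tumor and genes ordered by mean. Kit and Fgfr1 stand above the other receptor tyrosine kinases and Kcnk3 above the other potassium channels, whereas the ETS factors fall off gradually from Etv4 at 52.5 FPKM.

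Etv1 was not the highest ETS factor. Of 26 members of that family, 22 (84.6%) were at 1 FPKM or more in every tumor, beside 59.4% of named genes. Etv4, a close relative of Etv1, measured 48.1, 50.2, 62.2 and 49.4 FPKM (52.5 ± 6.55, SD, n = 4), and Etv5, the remaining member of that subfamily, measured 20.4, 29.8, 33.9 and 28.0 FPKM. Etv4 exceeded Etv1 in tumors 1, 3 and 4, and Etv1 was marginally the higher in tumor 2. Factors of other cell types followed closely, with the epithelial factor Elf3 at 40.8, 45.3, 27.2 and 29.5 FPKM and Sfpi1, which encodes the myeloid and B cell factor PU.1, at 41.8, 25, 20.6 and 33.8 FPKM. Etv1 therefore lay among factors of epithelium and immune cells in level.

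Homeobox and basic helix-loop-helix factors of mesenchyme were at 1 FPKM or more in every tumor in 28 of 45 cases, 62.2% beside 59.4% of named genes. Meis2, a homeobox partner of Hox proteins, had 106, 126, 144 and 86.2 FPKM, Meis1 had 73.7 ± 7.21, and Nkx2-3, a homeobox factor of gut and spleen mesenchyme, had 45.5 ± 6.90 FPKM. Foxf1a, a forkhead factor of gut mesenchyme, had 39.0, 41.6, 51.9 and 68.6 FPKM, although its locus in the table is merged with many others. Tbx4, a T-box factor of hindlimb and lung mesenchyme, had 80.3, 77.2, 97.9 and 76.3 FPKM and held 78.5% of the summed mean of 17 T-box genes. By contrast, Gata4 (0.437 ± 0.113 FPKM) was below 1 FPKM in all tumors, and Gata6, the only GATA factor at that level in each, had 2.08 ± 0.181 FPKM.

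Hox genes record the position of a tissue along the body axis, with low numbers toward the head and high numbers toward the tail. Of 39 genes, 23 were at 1 FPKM or more in every tumor, about the share of named genes (59.4%), and the levels differed by number. Hoxa10 was the highest at 64.5, 65.3, 62.0 and 60.9 FPKM, and Hoxd10 (42.8 ± 5.06), Hoxd8 (42.4 ± 4.68), Hoxa9 (36.8 ± 2.73) and Hoxd9 (32.0 ± 12.9) came next. Hoxa10 was nearly equal in the tumors, while Hoxd9 ranged from 18.6 FPKM in tumor 2 to 48.0 FPKM in tumor 1. At both ends of the clusters the levels were below 1 FPKM, with Hoxb1 at 0.0163 ± 0.0208, Hoxd12 at 0.0211 ± 0.00881, Hoxa13 at 0.414 ± 0.262 and Hoxd13 at 0.0690 ± 0.0554 FPKM. Members of clusters A and D summed to 181.5 and 160.1 FPKM on average, against 19.65 and 22.28 FPKM for clusters B and C. Hox loci overlap within a cluster in places, so single values such as those of Hoxd8 and Hoxd10 are uncertain.

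**Figure D4:**
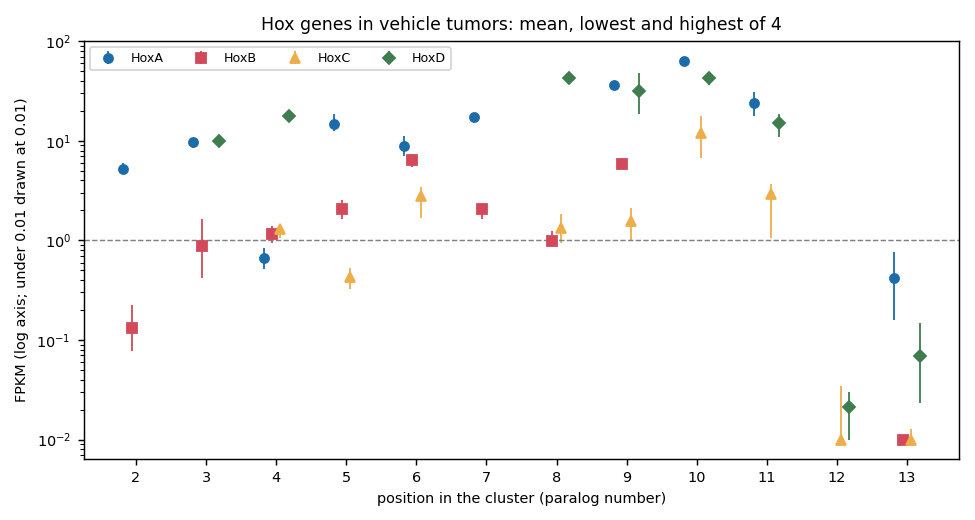
Mean FPKM on a log axis of Hox genes from number 2 upward against their number in the cluster, with colors for clusters A to D and bars from the lowest to the highest of the 4 vehicle tumors; values under 0.01 are drawn at 0.01 and the dashed line is 1 FPKM. Clusters A and D are highest at numbers 8 to 10, where Hoxa10 reaches 63.2 FPKM, and the genes numbered 12 and 13 are below the line.

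Interferon-linked transcription factors had the highest median of the 10 factor lists. All 16 STAT and IRF genes were at 1 FPKM or more in every tumor, beside 59.4% of named genes, with a median of the means of 52.3 FPKM. Irf7, which amplifies interferon production, had 528, 437, 491 and 564 FPKM. Irf1, an early interferon-induced factor, had 86.5, 85.7, 73.4 and 225 FPKM, high in tumor 4 only. Batf2, an interferon-inducible AP-1 relative, showed the same with 60.2, 64.8, 72.0 and 186 FPKM. The loci of Irf1, Irf7 and Batf2 each overlap another expressed gene. Egr1, an immediate early factor, had 11.8, 14.4, 23.9 and 30.9 FPKM, and Fos, another one, had 5.83, 5.49, 3.89 and 3.83 FPKM, so the pair was ordered differently across tumors.

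The tumors were alike across genes. Spearman correlations over 12058 named genes with a mean of at least 1 FPKM ran from 0.968 to 0.980 for the 6 pairs, which share the range of gene levels and so say little of any single gene. Spread was measured in the 7250 named genes with a mean of at least 10 FPKM as the SD of log2(FPKM + 1), and its median was 0.176. The ratio of the highest to the lowest tumor, with 1 FPKM added to both, had a median of 1.31. It was below 1.5 in 5563 genes (76.7%), at least 2 in 356 genes (4.91%) and at least 4 in 38 genes. Without replicate 2 the share at 2 or more was 2.99%, and leaving out any of the tumors lowered it, since 3 libraries span less than 4. By this measure the median spread differed little with level. The median SD was 0.216 for genes between 1 and 3 FPKM, 0.171 between 30 and 100 FPKM and 0.190 at 1000 FPKM or more. The share with a 2-fold range was 9.55% between 1 and 3 FPKM and 4.70% between 10 and 30 FPKM. The added 1 FPKM shrinks ratios more at low levels, so both measures understate the spread of genes between 1 and 3 FPKM.

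Tumors differed in how often they stood alone. Tumor 4 lay at least 2 times above all others in 12 genes, against 5, 4 and 4 genes for tumors 1, 2 and 3. Tumors 2 and 3 lay at least 2 times below all others in 15 and 13 genes, against 4 and 7 for tumors 1 and 4. No tumor stood apart by 2-fold over many genes. Without that limit, tumors 1 to 4 were the highest in 1583, 2513, 1735 and 1419 of the 7250 genes. They were the lowest in 2389, 2106, 1093 and 1662, so tumor 2 was often at either end. These counts are of FPKM without further scaling, so a small offset between libraries enters them. Scaling by the median ratio would divide tumors 1 to 4 by 0.978, 1.02, 1.016 and 1, and the counts were not repeated after it. The confidence bounds in the authors' deposited table were wide and lay a median of 55.4% of the value to either side of it. By these bounds, at least 2 tumors were separate in 56 (0.78%) of the 7180 genes whose bounds enclosed the value in every tumor. Of these, 166 were genes named by the rule given below, and 14 of the 166 had separate tumors. None of the 7 markers was among those 14, nor were Irf1, Batf2 and Gpr133, so their order across tumors is not resolved by the bounds.

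The 3 genes with the widest spread were sex-linked. Xist, the RNA that silences an X chromosome in females, measured 0.184, 289, 261 and 0.440 FPKM, and the Y-linked genes Eif2s3y (79.1, 0.238, 0 and 70.0 FPKM) and Ddx3y (32.5, 0.111, 0.00677 and 31.9 FPKM) were the reverse. Tumors 1 and 4 thus carried Y-linked RNA and tumors 2 and 3 carried Xist, so the tumors did not all come from 1 mouse. Secreted defense proteins were also among the 10 widest. Reg3b and Reg3g, antimicrobial lectins of gut epithelium, measured 332, 76.6, 13.6 and 125 FPKM and 180, 46.8, 6.33 and 72.6 FPKM. Lcn2, the iron-scavenging lipocalin of inflamed epithelium and neutrophils, had 211, 38.5, 14 and 33.4 FPKM. All of these last 3 genes were highest in tumor 1 and lowest in tumor 3, as were Igj, Lgals4 and the summed neutrophil genes, and the part of epithelium and of immune cells in this order was not tested.

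Rxfp2 and Ndufs5 followed the sex-linked genes in spread. Rxfp2, a receptor of the relaxin family, had 45.2, 0.647, 59.2 and 54.4 FPKM and was nearly lost in tumor 2. Ndufs5, a subunit of respiratory complex I, had 1.97, 2.3, 46.9 and 1.72 FPKM, high in tumor 3 only. Whether the quantification of Ndufs5 produced this pattern was not tested. Pof1b, an actin-binding protein of epithelium, had 4.18, 6.00, 3.30 and 69.0 FPKM, high in tumor 4 only. It was not among the 14 named genes whose deposited bounds separated at least 2 tumors. Wfdc2, a secreted protease inhibitor of epithelia, had 392, 428, 37.6 and 157 FPKM, high in tumors 1 and 2, between in tumor 4 and low in tumor 3. At the other end, Vrk3, Bccip, Vhl, Pomgnt1, Mrpl16, Glyr1, Mrps27, Flt3l, Qrich1 and Coq2 had the smallest SD. They were picked for it among 7250 genes, so their near-equal values follow from that choice and do not show steady genes. The loci of Bccip, Pomgnt1 and Flt3l overlap other expressed genes. Vhl, the substrate adaptor that marks HIF factors for degradation, had 20, 20.3, 20.2 and 20.2 FPKM.

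**Figure D5:**
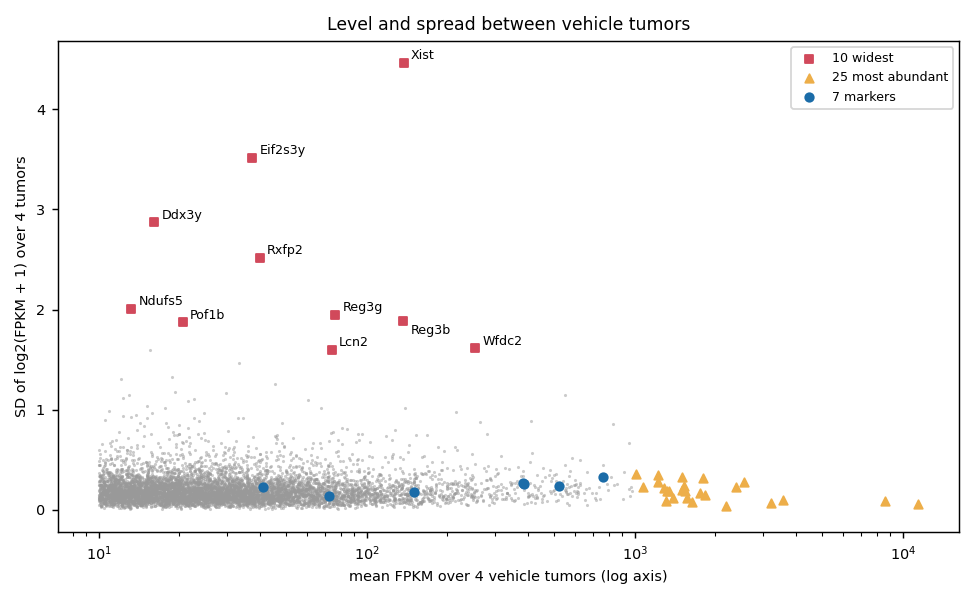
SD of log2(FPKM + 1) over the 4 vehicle tumors against mean FPKM (log axis) for 7250 named genes, with the 10 widest, the 25 most abundant and the 7 marker genes in color. The markers and the abundant genes lie within the main band, and Xist and the Y-linked genes lie highest.

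The tumors also fell into pairs for some gene families, which were grouped after their values had been seen. In 29.2% of the 7250 genes, tumors 2 and 3 were the highest pair, against 17.2% for tumors 1 and 3, 16.3% for tumors 1 and 4 and 8.58% for tumors 1 and 2. After scaling the libraries by the median ratio, the shares were 24.4% for tumors 2 and 3, 20.3% for tumors 1 and 4 and 18.7% for tumors 1 and 3, so most of the gap between the first pair and tumors 1 and 4 was gone. Of 83 genes of the respiratory chain and ATP synthase, 57 had tumors 2 and 3 as the highest pair and 1 had tumors 1 and 4, and their sum was 20787, 24702, 24399 and 18997 FPKM. Of 63 ribosomal protein genes, 46 had tumors 1 and 4 as the highest pair and 4 had tumors 2 and 3, with sums of 19125, 13917, 15085 and 17252 FPKM. Among the 7 lineage markers, Kit, Ano1, Edn3 and Etv1 had tumors 2 and 3 as the highest pair and 0 had tumors 1 and 4. After the same scaling, these counts were 53 and 2 for the respiratory chain and 47 and 4 for the ribosomal proteins, while those of the markers stayed at 4 and 0. Tumors 2 and 3 are the ones with Xist, and with 2 tumors on each side sex and any other difference between these tumors cannot be told apart.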

How the data were processed

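RNA sequencing of total RNA from 4 vehicle-treated cecal tumors was used, with group and replicate number taken from the sample titles. Tumors were ground in Trizol and RNA was column-purified, per the labels' protocols. The deposited table holds FPKM per gene with a status and confidence bounds for each library, in the layout of Cuffdiff, per the file headers. STAR 2.3, Cufflinks, Cuffdiff and mm9 are named, per the submitters' processing notes; no settings, strandedness or read number are stated in the sources used here. Absolute depth is unknown, so no counting interval is given.

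Values with a failed or high-depth status were treated as missing (70 values in 47 symbols). Rows of 1 symbol were summed, giving 34586 symbols from 37980 rows. Means and SDs are of FPKM without further scaling, and spread is the SD of log2(FPKM + 1). Python 3.11.15 with pandas 2.3.3, numpy 2.4.6 and scipy 1.17.1 was used, and the spread procedure was tested on simulated data. No test between groups was made.

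The members and the 48 gene lists were chosen with earlier results of these data known. Genes were named by a rule: the 7 markers, the 25 most abundant, the 5 highest of each receptor, channel or factor list and the 3 highest of each cell type list at a mean of 1 FPKM, and the 10 widest and 10 narrowest in spread. This gave 219 genes, 54 with a locus that overlaps another expressed gene. Some of them are not reported here. Further list members were named after their values were seen, as low members, as receptors and channels known from interstitial cells of Cajal, or as defining genes of a cell type. Alternatives were other thresholds, pseudocounts and filters, failed values as listed, the highest row in place of the sum, scaling by the median ratio, and leaving out each tumor.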

Additional observations from a re-analysis of the deposited data

Results flagged for a closer look

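In groups of 4, a tumor was picked out when its gap to the nearest other tumor, divided by the whole range, exceeded the critical value of Dixon's ratio. Chance picks out about 1 in 20 groups not chosen for their spread, and here it was 12 of 199 genes named for their level or role and 2 of 48 summed lists. A further 3 (Ndufs5, Pof1b and Lcn2) came from the 20 genes named for their spread in these 4 tumors, to which that rate does not apply. Tumor 4 was high for Adipoq (9.56 FPKM), an adipocyte hormone, Gpr133 (75 FPKM), Itpr3 (6.94 FPKM), Batf2 (186 FPKM), Irf1 (225 FPKM) and Pof1b (69.0 FPKM), and for the summed AP-1 and Egr factors (319 FPKM), of which Batf2 held the most. Tumor 2 was high for Mcpt1 (3.38 FPKM), Klf6 (36.0 FPKM) and Sp3 (33.4 FPKM) and low for Cacnb3 (20.4 FPKM). Tumor 3 was high for Etv4 (62.2 FPKM) and Ndufs5 (46.9 FPKM) and low for Krt19 (156 FPKM), an epithelial keratin, and for the summed chemokine receptors (109 FPKM). Tumor 1 was high for Lcn2 (211 FPKM) and low for Sox11 (1.01 FPKM).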

How the results depend on the processing

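The count of 13430 symbols stayed within 9710 to 14642 under all alternatives run, and 13542 to 13638 with a tumor left out. List members at the threshold numbered 504 of 1055, a smaller share than the 59.4% of named genes. They numbered 303 at 5 FPKM and 509 to 518 with a tumor left out. The median spread of 0.176 was 0.146 to 0.18 with a tumor left out, lowest without replicate 2. The share of genes with a 2-fold range, 4.91%, was 5.22% with failed values as listed, 5.64% with a pseudocount of 0.1 FPKM, 6.28% for means of at least 1 FPKM, and 2.99% to 3.50% with a tumor left out. The median correlation between tumors, 0.976, was 0.948 for means of at least 10 FPKM and 0.969 to 0.978 with a tumor left out. The causes were not tested. Of the 48 lists, 30 counts moved at 5 FPKM, 7 at 0.5 FPKM and 2 without replicate 3, and of 219 means only that of Sox4 moved, to 7.10 FPKM with its highest row kept. The likeness of tumors and the gene means were rerun under alternatives chosen after seeing the data. No paired analysis was possible because 1 group was described and its results come from no test. FPKM without read numbers limits what can be said of genes below 1 FPKM.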
